A study of Mus musculus with 16 samples.

Results

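The genes described here are 40 enzymes and carriers with which the liver breaks down amino acids and makes urea. They were taken from a list of gene symbols, and each gene was read from the probe set annotated with that symbol, using the probe set with the highest mean over the 16 arrays where a gene had several. In all, 36 of the 40 genes were measured, out of 30142 genes with a probe set of 1 symbol. Ass1, argininosuccinate synthase, has a probe set that also lists a further symbol and was therefore not named, and Gls2, Sds and Sdsl are not listed in the annotation used here.

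Total RNA of whole mouse liver was hybridised to Affymetrix arrays, 1 array per sample. The 16 arrays form 4 groups of 4, given by operation and genotype. Sham Pparafl/fl and sham Ppara△Hep livers came from mice with a sham operation, and PHx Pparafl/fl and PHx Ppara△Hep livers from mice with partial hepatectomy (PHx), in which part of the liver is removed and the rest regrows. All were harvested at 12 h. Pparafl/fl mice, written fl/fl below, carry floxed alleles of Ppara and are the study's wild type. In Ppara△Hep mice the gene was disrupted in hepatocytes, and the sources used here give no Cre driver, age or sex. PPARα, a nuclear receptor bound by fatty acids, drives genes of fat oxidation and of fasting. The comparisons ask how these genes respond to the operation and whether the response differs without hepatocyte PPARα. Whether each array is a mouse of its own is not stated, and p-values measure only how these arrays spread, which may in part be technical.

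Amino acids that reach the liver lose their nitrogen by transamination or deamination, and their carbon skeletons feed glucose production or oxidation. The ammonia released is joined to bicarbonate in mitochondria and passes through the urea cycle, in which ornithine is carried in, converted to citrulline, and regenerated by arginase. Most of these enzymes lie in hepatocytes, the urea cycle and many breakdown enzymes mainly in those near the portal vein, and they are classically induced by glucagon, glucocorticoids and a protein-rich diet. In a bulk sample, fewer cells of a type and less RNA per cell cannot be told apart.

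Values are RMA log2 levels as deposited. A level is followed by its SD over 4 arrays, and a difference by its standard error from a limma model that shares 1 spread per gene over the 4 groups. A gene is said to have risen or fallen where the Benjamini-Hochberg adjusted p over all 30142 genes was below 0.05. Array numbers run from 1 to 4 within a group and pair nothing across groups. The probe set of Ppara read 6.45, 7.02, 6.99 and 6.77 in sham fl/fl, 6.29, 6.43, 6.43 and 6.05 in sham Ppara△Hep, 6.97, 6.08, 5.68 and 7.24 in PHx fl/fl and 6.26, 5.02, 5.28 and 4.70 in PHx Ppara△Hep livers. Ppara△Hep minus fl/fl differences were -0.50 ± 0.33 after sham and -1.17 ± 0.33 after PHx and did not pass the test (adjusted p = 0.681 and 0.326), and whether its probes lie in the deleted part is not known here. As a check of the tissue, the mean level of 12 hepatocyte markers was 10.48 to 10.55 on sham and 10.30 to 10.42 on PHx arrays, while lists for pancreas, intestine, kidney and skeletal muscle had means of at most 2.98 on any array. Array medians over all probe sets ran from 2.02 to 2.08 on the sham and from 2.14 to 2.22 on the PHx arrays. Probe sets of the Y chromosome had medians of 1.70 to 1.87 on sham and 4.99 to 5.49 on PHx arrays, while a list of 3 Y genes of single copy lay at 4.64 to 4.81 and 4.30 to 4.62; the part of these array differences in the results was not tested.

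PHx moved the amino acid genes in both directions. In fl/fl livers 8 of the 36 genes rose, 11 fell and 17 did not pass. The genes that rose were Asl, Arg1 and Slc25a15 of the urea cycle, the transaminases Got1 and Gpt2, the lysine enzyme Aass, the branched-chain subunit Bckdhb and the methionine enzyme Mat1a. Among all genes tested, 11.9% rose and 20.8% fell in this comparison. Since all 36 genes had a mean level of at least 4, a further background is the 9294 genes above that floor, of which 6.89% rose and 36.1% fell, against 22.2% and 30.6% of the amino acid genes. Their median change was -0.08, and that of the 9294 genes was -0.16.

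In Ppara△Hep livers 5 genes rose, 14 fell and 17 did not pass, against 14.8% higher and 17.5% lower among all genes and 6.24% and 39.8% among the 9294. Of the amino acid genes this was 13.9% and 38.9%, with a median change of -0.22 against -0.19. The 9294 genes share only the floor with the amino acid genes and are not matched to them in level. All 5 genes that rose in Ppara△Hep livers, Arg1, Slc25a15, Got1, Aass and Mat1a, are among the 8 that rose in fl/fl (62.5% of them). All 11 that fell in fl/fl livers are among the 14 that fell in Ppara△Hep (78.6% of them), where Got2, Fah and Ahcy were added. These 2 comparisons share no array, but they share the estimate of spread. PHx and sham arrays did not overlap for 8 higher and 13 lower genes in fl/fl and for 5 higher and 12 lower in Ppara△Hep livers, where 32% of all genes did not overlap in the first genotype and 32% in the second.

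**Figure D1:**
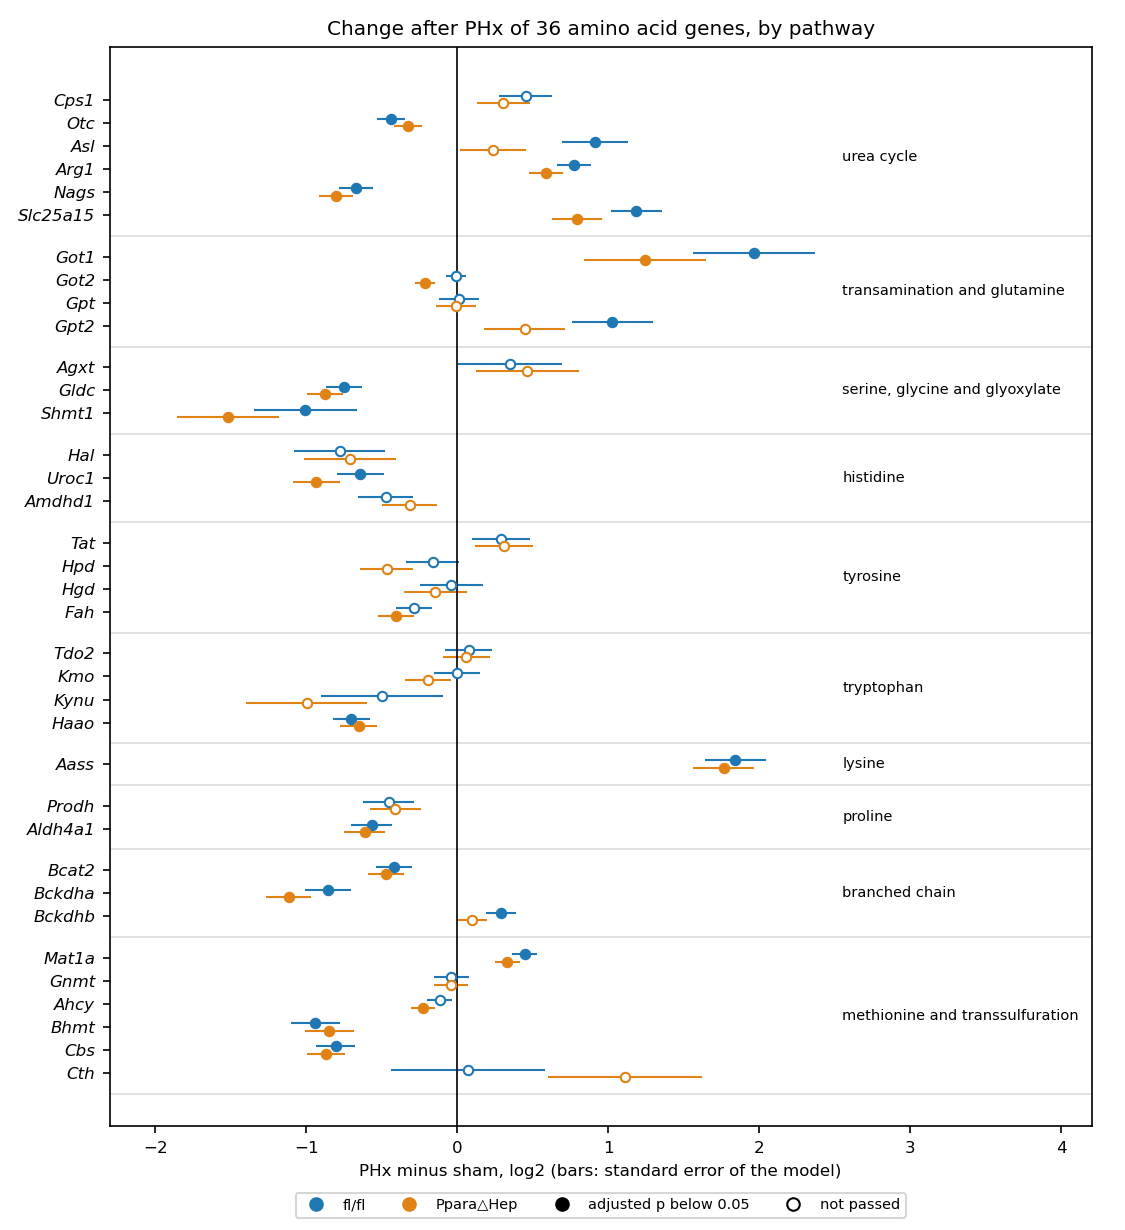
Change after PHx (log2, PHx minus sham, with the standard error of the model) of the 36 measured genes, grouped by pathway; filled points have an adjusted p below 0.05. Got1 and Aass lie farthest to the right and Shmt1 farthest to the left in both genotypes, and the urea cycle holds genes that rose and genes that fell.

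Got1 and Aass had the highest rises, and Shmt1 and Bckdha were the genes that fell by at least 1 log2 unit in a genotype. The 250 bases before their RefSeq start (GRCm38.p6) are given to show what stands upstream of genes that moved in opposite directions. They lie at chr19:43524606-43524855 (Got1), chr6:23132987-23133236 (Aass), chr11:60811266-60811515 (Shmt1) and chr7:25658762-25659011 (Bckdha), all on the minus strand. Capitals mark matches, on either strand, to the motifs searched.
Got1: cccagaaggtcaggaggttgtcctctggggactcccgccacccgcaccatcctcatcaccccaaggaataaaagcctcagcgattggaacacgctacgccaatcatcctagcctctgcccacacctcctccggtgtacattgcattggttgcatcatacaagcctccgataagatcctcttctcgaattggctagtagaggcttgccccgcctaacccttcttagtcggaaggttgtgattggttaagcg
Aass: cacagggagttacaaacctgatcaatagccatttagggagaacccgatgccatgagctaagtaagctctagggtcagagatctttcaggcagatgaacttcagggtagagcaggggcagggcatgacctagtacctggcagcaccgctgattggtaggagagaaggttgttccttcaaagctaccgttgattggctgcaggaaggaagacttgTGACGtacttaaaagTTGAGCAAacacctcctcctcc
Shmt1: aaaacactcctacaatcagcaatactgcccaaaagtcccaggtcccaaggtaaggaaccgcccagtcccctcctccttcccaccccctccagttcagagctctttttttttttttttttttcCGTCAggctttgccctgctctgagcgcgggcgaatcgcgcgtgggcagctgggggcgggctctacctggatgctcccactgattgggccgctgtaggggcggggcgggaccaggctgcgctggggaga
Bckdha: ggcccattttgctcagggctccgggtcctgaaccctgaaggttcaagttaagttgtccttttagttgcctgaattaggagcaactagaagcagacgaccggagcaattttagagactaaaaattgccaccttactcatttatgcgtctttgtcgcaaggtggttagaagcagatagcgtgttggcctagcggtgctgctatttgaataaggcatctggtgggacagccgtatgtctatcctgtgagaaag
The letters searched were those of the cyclic AMP response element TGACGTCA and its short form TGACG, the C/EBP motif TTNNGCAA, the glucocorticoid motif ACANNNTGT, the direct repeat of the PPAR element and the TATA motif TATAAA, of which the first contains the second. Aass held TGACG 37 bases and TTGAGCAA 22 bases before its start, and Shmt1 held the short form on the other strand, 128 bases before. The promoters of Got1, Bckdha, Slc25a15 and Gpt2 held no match in this window. Of 32851 RefSeq promoters, 17.8% held the short form, 9.56% the C/EBP motif, 5.84% the glucocorticoid motif, 12.4% the TATA motif, 1.55% the full response element and 0.0335% the PPAR element. Of the 40 listed genes, 30 had a promoter entry, and 2, 3, 4, 4, 0 and 0 of the 30 held these motifs in that order. Such matches are a description of the letters only.

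In the urea cycle the ornithine carrier Slc25a15 and arginase rose in both genotypes and Asl in fl/fl livers, while Otc and Nags fell in both. In fl/fl livers 3 of the 6 measured genes rose and 2 fell, and in Ppara△Hep livers 2 rose and 2 fell. Of all genes 11.9% rose and 20.8% fell in fl/fl and 14.8% and 17.5% in Ppara△Hep livers. Of genes with a mean of at least 4 these shares were 6.89% and 36.1%, and 6.24% and 39.8%. The counts of so few genes were not tested against these shares. Slc25a15 carries ornithine into mitochondria. It read 7.85, 8.11, 7.67 and 8.07 on the sham fl/fl arrays and 8.81, 9.68, 8.83 and 9.13 after PHx. Its Ppara△Hep arrays read 8.10, 7.74, 8.06 and 8.27 after sham and 8.77, 8.84, 8.76 and 8.96 after PHx. Every PHx array lay above every sham array in both genotypes, and PHx array 2 of fl/fl stood highest. The rise was 1.19 ± 0.17 in fl/fl (2.28-fold, adjusted p = 9.78e-05) and 0.79 ± 0.17 in Ppara△Hep livers (1.73-fold, adjusted p = 0.00217).

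Arg1, arginase, cleaves arginine to urea and ornithine. Its levels in fl/fl livers were 9.76, 9.62, 9.35 and 9.68 after sham and 10.23, 10.54, 10.19 and 10.54 after PHx, and in Ppara△Hep livers 9.47, 9.60, 9.25 and 9.60 and then 10.06, 10.08, 9.90 and 10.25. No PHx array overlapped with sham in either genotype. Arg1 rose by 0.77 ± 0.11 in fl/fl (1.71-fold, adjusted p = 0.00014) and 0.59 ± 0.11 in Ppara△Hep livers (1.50-fold, adjusted p = 0.00114). Asl splits argininosuccinate into arginine and fumarate. Its fl/fl arrays read 8.54, 8.46, 8.24 and 8.64 after sham and 9.20, 9.45, 8.82 and 10.05 after PHx, all above sham, with array 4 the highest. The Ppara△Hep arrays read 8.65, 8.45, 8.30 and 8.38 after sham and 8.97, 8.51, 8.23 and 9.01 after PHx, which overlap. Asl rose by 0.91 ± 0.22 in fl/fl livers (1.88-fold, adjusted p = 0.00564), and its change in Ppara△Hep livers of 0.24 ± 0.22 did not pass (adjusted p = 0.443). The difference between these changes, -0.67 ± 0.31, did not pass over all genes (adjusted p = 0.433; unadjusted p = 0.0452).

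Cps1, carbamoyl phosphate synthetase, takes up ammonia in mitochondria. Its sham fl/fl arrays read 10.78, 10.71, 10.30 and 10.82, and the PHx arrays 11.07, 11.32, 10.60 and 11.45. In Ppara△Hep livers it read 10.68, 10.40, 10.36 and 10.74 after sham and 11.07, 11.04, 10.52 and 10.77 after PHx. Array 3 was the lowest PHx array in both genotypes and lay within the sham range, and so the groups overlapped. The changes, 0.45 ± 0.18 (adjusted p = 0.0601) and 0.31 ± 0.18 (adjusted p = 0.201), did not pass. The fl/fl change passed without PHx array 3 (0.62, adjusted p = 0.0093), after cyclic loess (0.49, 0.0404) and with array weights (0.52, 0.0234). Without both PHx arrays numbered 3, the lowest of their groups, the Ppara△Hep change was 0.42 (adjusted p = 0.0398). That setting was added after the data were seen, and leaving out the lowest PHx array can only raise the change. It was the only 1 of 25 in which the Ppara△Hep change passed, and the fl/fl change passed in 4. The adjusted p reached 0.183 in fl/fl and 0.482 in Ppara△Hep livers.

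Otc makes citrulline from ornithine and carbamoyl phosphate. It read 9.59, 9.83, 9.75 and 9.93 after sham and 9.19, 9.50, 9.30 and 9.37 after PHx in fl/fl livers, with no overlap. Its Ppara△Hep arrays read 9.68, 9.55, 9.70 and 9.74 after sham and 9.38, 9.30, 9.12 and 9.55 after PHx, where PHx array 4 just reached the sham range. Otc fell by 0.44 ± 0.09 on the log2 scale in fl/fl (1.35-fold, adjusted p = 0.00256) and by 0.33 ± 0.09 in Ppara△Hep livers (1.25-fold, adjusted p = 0.0141). Without both PHx arrays numbered 3 the latter was -0.25 (adjusted p = 0.0538). Nags makes N-acetylglutamate, which activates Cps1. It fell from 5.77 ± 0.17 to 5.10 ± 0.20 in fl/fl (adjusted p = 0.000513) and from 5.78 ± 0.14 to 4.98 ± 0.17 in Ppara△Hep livers (adjusted p = 0.000102), with no overlap in either.

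**Figure D2:**
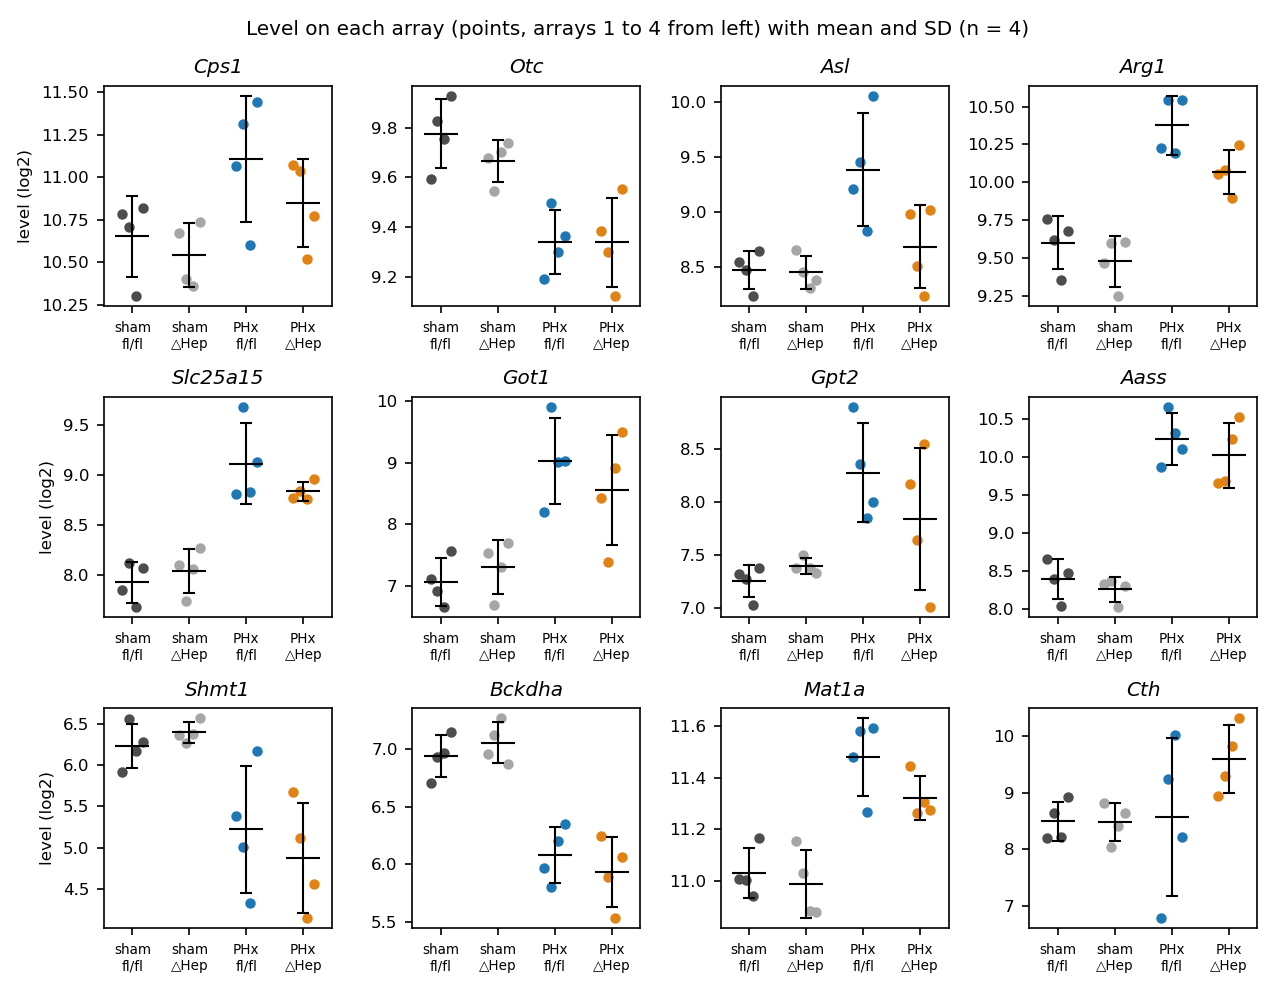
Level (log2) of 12 genes on each array, with the mean and SD of each group (n = 4); points run from array 1 to 4. Arg1, Slc25a15 and Aass stand higher and Bckdha stands lower on every PHx array in both genotypes, while the Cth levels of PHx fl/fl arrays spread from 6.78 to 10.02.

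Aminotransferases pass nitrogen between amino acids and keto acids, and in fl/fl livers 1 form of the aspartate and 1 form of the alanine enzyme rose while the other form of each did not pass. Got1 is the cytosolic aspartate aminotransferase, also a part of the malate-aspartate shuttle. It read 7.12, 6.92, 6.66 and 7.57 after sham and 8.19, 9.90, 9.01 and 9.03 after PHx in fl/fl livers, with every PHx array above sham. Its Ppara△Hep levels were 7.54, 6.70, 7.31 and 7.69 after sham and 8.42, 7.39, 8.91 and 9.50 after PHx, where array 2 stayed within the sham range. Got1 had the largest rise of the 36 genes in fl/fl livers, 1.96 ± 0.41 (3.90-fold, adjusted p = 0.00218), and rose by 1.24 ± 0.41 in Ppara△Hep livers (2.37-fold, adjusted p = 0.0293). The Ppara△Hep rise did not pass without sham array 2 (1.04, adjusted p = 0.0885) or 3 (1.24, 0.0589), without PHx array 3 (1.13, 0.075) or 4 (0.93, 0.101), or when only those 2 groups were fitted (adjusted p = 0.0541).

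Got2, the mitochondrial form, lay at 9.14 ± 0.07 after sham and 9.13 ± 0.08 after PHx in fl/fl livers, a change of -0.01 ± 0.07 (adjusted p = 0.939). In Ppara△Hep livers it fell from 9.01 ± 0.06 to 8.80 ± 0.14 (adjusted p = 0.0216), a call lost without sham array 3 (-0.19, adjusted p = 0.0631), without PHx array 2 (-0.16, 0.0655) or 3 (-0.20, 0.0541), after cyclic loess (-0.15, 0.146) and with only those groups fitted (0.0548). With array medians subtracted the change was -0.37 (adjusted p = 0.000649). Got1 minus Got2 on each array was higher after PHx by 1.97 in fl/fl and 1.46 in Ppara△Hep livers, which is given without a test because the pair was chosen with its values known.

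Gpt2 is the mitochondrial alanine aminotransferase, which links alanine to pyruvate. Its fl/fl arrays read 7.32, 7.27, 7.03 and 7.37 after sham and 8.90, 8.36, 7.84 and 8.002 after PHx, with no overlap. Its Ppara△Hep arrays read 7.37, 7.50, 7.38 and 7.33 after sham and 8.17, 7.64, 8.55 and 7.002 after PHx, so that 3 lay above sham and array 4 below it. Gpt2 rose by 1.03 ± 0.27 in fl/fl livers (2.04-fold, adjusted p = 0.0091). The Ppara△Hep change of 0.45 ± 0.27 did not pass (adjusted p = 0.222), and was 0.73 with an adjusted p of 0.0277 without PHx array 4. That was the only 1 of 25 settings in which this change passed, and its adjusted p reached 0.562. Gpt, the cytosolic form, lay between 5.23 and 5.89 on all 16 arrays, with changes of 0.01 ± 0.13 and -0.01 ± 0.13. Gpt2 minus Gpt was higher after PHx by 1.01 in fl/fl and 0.45 in Ppara△Hep livers, again without a test.

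The enzymes of serine, glycine and glyoxylate fell or did not pass. Of the 3 measured, 2 fell in each genotype. Of all genes 20.8% fell in fl/fl and 17.5% in Ppara△Hep livers, and of those with a mean of at least 4, 36.1% and 39.8%. The count of so few genes was not tested against these shares. Shmt1 is the cytosolic serine hydroxymethyltransferase, which moves a carbon between serine, glycine and folate. It read 5.91, 6.55, 6.16 and 6.28 after sham and 5.38, 5.01, 4.33 and 6.17 after PHx in fl/fl livers, where array 4 stayed in the sham range. Its Ppara△Hep levels were 6.37, 6.27, 6.37 and 6.57 after sham and 5.68, 5.12, 4.15 and 4.56 after PHx, all below sham. Shmt1 showed the largest fall in both genotypes, -1.005 ± 0.34 in fl/fl (2.01-fold lower, adjusted p = 0.0335) and -1.52 ± 0.34 in Ppara△Hep livers (2.86-fold lower, adjusted p = 0.00331). The fl/fl call was lost without sham array 2 (-0.90, adjusted p = 0.0865), 3 (-1.03, 0.0615) or 4 (-0.99, 0.0661) and without PHx array 2 (-0.93, 0.0801) or 3 (-0.71, 0.106), after cyclic loess (-0.87, 0.0668) and with only those groups fitted (0.0513).

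Gldc, the decarboxylase of the glycine cleavage system, fell from 7.05 ± 0.15 to 6.30 ± 0.10 in fl/fl (1.68-fold, adjusted p = 0.000281) and from 7.03 ± 0.09 to 6.16 ± 0.29 in Ppara△Hep livers (1.83-fold, adjusted p = 6.2e-05). Agxt transfers the amino group of alanine to glyoxylate. It read 7.49, 7.60, 7.51 and 7.81 after sham and 7.11, 7.37, 9.28 and 8.04 after PHx in fl/fl livers, so that its PHx arrays lay on both sides of sham. Its Ppara△Hep levels were 7.88, 7.58, 7.60 and 7.69 after sham and 8.14, 7.59, 8.27 and 8.60 after PHx. Neither change passed (0.35 ± 0.34, adjusted p = 0.463, and 0.46 ± 0.34, adjusted p = 0.325), and without PHx array 3 the fl/fl change was -0.09.

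The ring amino acids, whose breakdown in the liver begins with dedicated enzymes, showed falls or no call, and no gene of the histidine, tyrosine and tryptophan groups rose. Of the 3 histidine, 4 tyrosine and 4 tryptophan genes, 1, 0 and 1 fell in fl/fl livers and 1 of each group in Ppara△Hep livers. Of genes with a mean of at least 4, 36.1% and 39.8% fell and only 6.89% and 6.24% rose. With so few genes, the absence of a rise does not set these groups apart. Of the histidine enzymes, Uroc1, urocanase, fell from 7.39 ± 0.22 to 6.75 ± 0.24 in fl/fl (adjusted p = 0.00658) and from 7.47 ± 0.16 to 6.54 ± 0.33 in Ppara△Hep livers (adjusted p = 0.000439). Hal, which removes ammonia from histidine, had changes of -0.78 ± 0.30 (adjusted p = 0.0618) and -0.71 ± 0.30 (0.0894). Amdhd1, which acts after urocanase, had changes of -0.47 ± 0.18 (0.0584) and -0.31 ± 0.18 (0.206). Neither passed as deposited. Of 25 alternative settings, Hal passed in 5 in fl/fl and 2 in Ppara△Hep livers, and Amdhd1 in 6 and 2. Over these settings the adjusted p reached 0.189 and 0.283 for Hal and 0.181 and 0.528 for Amdhd1. Subtracting array medians lowers the PHx changes of all genes in a genotype by the same amount, which makes every fall larger. With array medians subtracted Hal passed in fl/fl (-0.89, adjusted p = 0.0244) and Ppara△Hep livers (-0.86, 0.0285), and so did Amdhd1 (-0.58, 0.0139, and -0.46, 0.0408). With array weights both passed in fl/fl livers (0.0426 for Hal and 0.0295 for Amdhd1), and Amdhd1 passed there among genes with a mean of at least 4 (0.0492). Without PHx array 4 of fl/fl, Hal passed there (-0.99, adjusted p = 0.0235), and without PHx array 4 of Ppara△Hep both passed in that genotype (-0.93, 0.0339, and -0.49, 0.0333). Leaving out PHx array 3 or 4 of Ppara△Hep, which enter the shared spread alone, also let Hal (0.0252 and 0.0424) and Amdhd1 (0.0338 and 0.0225) pass in fl/fl livers.

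Tat, tyrosine aminotransferase, is a classical glucocorticoid-induced gene. It read 11.13, 11.06, 10.59 and 11.33 after sham and 11.16, 11.52, 11.58 and 11.01 after PHx in fl/fl livers. Its Ppara△Hep arrays read 11.21, 10.59, 10.97 and 11.29 after sham and 11.20, 10.9997, 11.48 and 11.62 after PHx. The groups overlapped in both genotypes, and the changes of 0.29 ± 0.19 and 0.31 ± 0.19 did not pass (adjusted p = 0.262 and 0.234). Fah, which acts last in tyrosine breakdown, fell in Ppara△Hep livers by 0.40 ± 0.12 on the log2 scale (adjusted p = 0.0166; 0.0531 without PHx array 3, 0.0618 after cyclic loess, 0.0635 with only those groups fitted). In fl/fl livers its change was -0.28 ± 0.12 (adjusted p = 0.0779; 0.0381 and 0.0323 without PHx array 1 or 2 of Ppara△Hep, 0.0116 with array medians subtracted, 0.0364 with array weights, 0.018 with only those groups fitted). Of 25 settings the fl/fl change of Fah passed in these 5, and its adjusted p reached 0.227. Hpd and Hgd, which act between Tat and Fah, did not pass in either genotype. Hpd came nearest, at -0.47 ± 0.17 in Ppara△Hep livers (adjusted p = 0.0523; 0.01 without PHx array 1 of that group, 0.0277 and 0.0414 without PHx array 3 or 4 of fl/fl, 0.0105 with array medians subtracted, 0.0276 with array weights, 0.0407 among genes with a mean of at least 4). Of 25 settings Hpd passed there in these 6, and its adjusted p reached 0.166.

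In tryptophan breakdown, Haao of the quinolinate branch fell from 8.26 ± 0.10 to 7.55 ± 0.18 in fl/fl (1.63-fold, adjusted p = 0.000704) and from 8.26 ± 0.12 to 7.60 ± 0.29 in Ppara△Hep livers (1.57-fold, adjusted p = 0.00109). Tdo2, the first enzyme of the route, and Kmo did not pass, with changes between -0.19 and 0.07. Kynu, kynureninase, changed by -0.50 ± 0.40 (adjusted p = 0.369) and -0.997 ± 0.40 (0.0718), with PHx levels spread from 5.65 to 7.93 in fl/fl and from 5.51 to 7.28 in Ppara△Hep livers. Its Ppara△Hep change passed without PHx array 1 of that group (-1.27, adjusted p = 0.0273), without PHx array 3 or 4 of fl/fl (0.0288 and 0.039), with array medians subtracted (-1.15, 0.03) and with array weights (0.0493). These are 5 of 25 settings, over which its adjusted p reached 0.213.

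Lysine breakdown is represented by Aass, the mitochondrial enzyme of its first steps. Aass read 8.66, 8.40, 8.04 and 8.47 after sham and 9.87, 10.66, 10.32 and 10.10 after PHx in fl/fl livers. The Ppara△Hep arrays read 8.34, 8.38, 8.03 and 8.31 after sham and 9.66, 9.69, 10.24 and 10.53 after PHx. Every PHx array lay more than 1 log2 unit above every sham array of its genotype. Aass rose by 1.84 ± 0.20 in fl/fl (3.59-fold, adjusted p = 7.34e-06) and by 1.76 ± 0.20 in Ppara△Hep livers (3.40-fold, adjusted p = 1.05e-05), the smallest adjusted p of the 36 genes in each.

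Proline enters breakdown through Prodh, and Aldh4a1 completes it to glutamate. Aldh4a1 fell from 6.24 ± 0.12 to 5.67 ± 0.21 in fl/fl (adjusted p = 0.00541) and from 6.20 ± 0.12 to 5.58 ± 0.31 in Ppara△Hep livers (adjusted p = 0.00296). Prodh changed by -0.45 ± 0.17 (adjusted p = 0.0528) and -0.41 ± 0.17 (0.0801). In fl/fl livers Prodh passed without PHx array 4 (-0.55, adjusted p = 0.032) and without PHx array 1 or 3 of Ppara△Hep (0.0238 and 0.0113), and in Ppara△Hep livers without PHx array 1 (-0.57, 0.0113). With array medians subtracted it passed in both (0.0155 and 0.016), and in fl/fl livers also with array weights (0.0454), among genes with a mean of at least 4 (0.0447) and with only those groups fitted (0.014). Of 25 settings, Prodh passed in 8 in fl/fl and 2 in Ppara△Hep livers. Its adjusted p reached 0.18 and 0.318.

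The branched-chain keto acid dehydrogenase commits leucine, isoleucine and valine to breakdown, and its E1 enzyme is built of the α subunit Bckdha and the β subunit Bckdhb. Bckdha read 6.71, 6.93, 6.96 and 7.14 after sham and 5.97, 5.80, 6.21 and 6.35 after PHx in fl/fl livers. The Ppara△Hep arrays gave 6.96, 7.12, 7.27 and 6.87 after sham and 6.25, 5.89, 5.53 and 6.07 after PHx. The groups did not overlap in either genotype, and PHx arrays were the lower ones. Bckdha fell by 0.85 ± 0.15 on the log2 scale in fl/fl (1.81-fold, adjusted p = 0.000676) and by 1.12 ± 0.15 in Ppara△Hep livers (2.17-fold, adjusted p = 6.2e-05).

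Bckdhb rose in fl/fl livers by 0.29 ± 0.10 (1.22-fold, adjusted p = 0.0368), and its change of 0.10 ± 0.10 in Ppara△Hep livers did not pass (adjusted p = 0.481). The fl/fl call was lost without sham array 1 (0.30, adjusted p = 0.0597) or 3 (0.20, 0.125), without PHx array 2 (0.30, 0.0607) or 4 (0.20, 0.111), with array medians subtracted (0.18, 0.149) and with only those groups fitted (0.085). Bcat2, the mitochondrial transaminase that acts before this complex and is low in hepatocytes, fell from 4.49 ± 0.10 to 4.08 ± 0.19 in fl/fl (adjusted p = 0.0152; 0.0559 after cyclic loess) and from 4.61 ± 0.11 to 4.14 ± 0.27 in Ppara△Hep livers (adjusted p = 0.00714).

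In methionine metabolism Mat1a rose in both genotypes, while Bhmt of remethylation and Cbs of transsulfuration fell in both. Mat1a makes S-adenosylmethionine, the methyl donor of the cell. It read 11.01, 11.01, 10.94 and 11.17 after sham and 11.48, 11.58, 11.27 and 11.59 after PHx in fl/fl livers. Its Ppara△Hep levels were 11.16, 11.03, 10.89 and 10.88 after sham and 11.44, 11.26, 11.30 and 11.27 after PHx. All PHx arrays lay above sham, and Mat1a rose by 0.45 ± 0.08 (1.36-fold, adjusted p = 0.00083) and 0.33 ± 0.08 (1.26-fold, adjusted p = 0.00589). With array medians subtracted the Ppara△Hep change was 0.18 (adjusted p = 0.0873).

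Cbs, which condenses homocysteine with serine, fell from 8.36 ± 0.07 to 7.56 ± 0.23 in fl/fl (1.75-fold, adjusted p = 0.000323) and from 8.36 ± 0.14 to 7.49 ± 0.28 in Ppara△Hep livers (1.83-fold, adjusted p = 0.000149). Bhmt returns homocysteine to methionine with betaine. It fell from 10.84 ± 0.21 to 9.90 ± 0.29 in fl/fl (1.92-fold, adjusted p = 0.000606) and from 10.82 ± 0.23 to 9.98 ± 0.27 in Ppara△Hep livers (1.80-fold, adjusted p = 0.0012). Bhmt had 2 probe sets, whose identifiers name different chromosomes. All Bhmt levels given here are of the probe set with the higher mean, TC1800000904.mm.1. The other, TC1300002436.mm.1, had smaller falls, with changes of -0.77 and -0.70. The position of the gene itself was not set against these identifiers, so the levels printed may not be those of the probe set at the gene. Ahcy, which releases homocysteine, also had 2 probe sets. It passed only in Ppara△Hep livers, at -0.23 ± 0.08 (adjusted p = 0.0481), and lost that call in 16 of 25 alternative settings, among them with each sham array of that genotype left out (0.0565 to 0.104). Gnmt, which uses up S-adenosylmethionine, changed by -0.04 ± 0.11 in each genotype.

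Cth makes cysteine from cystathionine and had the largest SD of the 36 genes in PHx fl/fl livers (1.40), for which its values were chosen for printing after they were seen. It read 8.20, 8.63, 8.22 and 8.92 after sham and 6.78, 9.24, 10.02 and 8.22 after PHx in fl/fl livers, where the PHx arrays lay below, within and above the sham range. In Ppara△Hep livers it read 8.83, 8.04, 8.41 and 8.65 after sham and 8.94, 9.29, 9.82 and 10.32 after PHx, all above sham. The changes of 0.07 ± 0.51 (adjusted p = 0.93) and 1.11 ± 0.51 (adjusted p = 0.11) did not pass. The Ppara△Hep change passed when only its own groups were fitted (adjusted p = 0.0225) or without PHx array 1 of fl/fl (0.0279), the former of which leaves the fl/fl arrays out of the shared spread. These are 2 of 25 settings, over which its adjusted p reached 0.267.

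**Figure D3:**
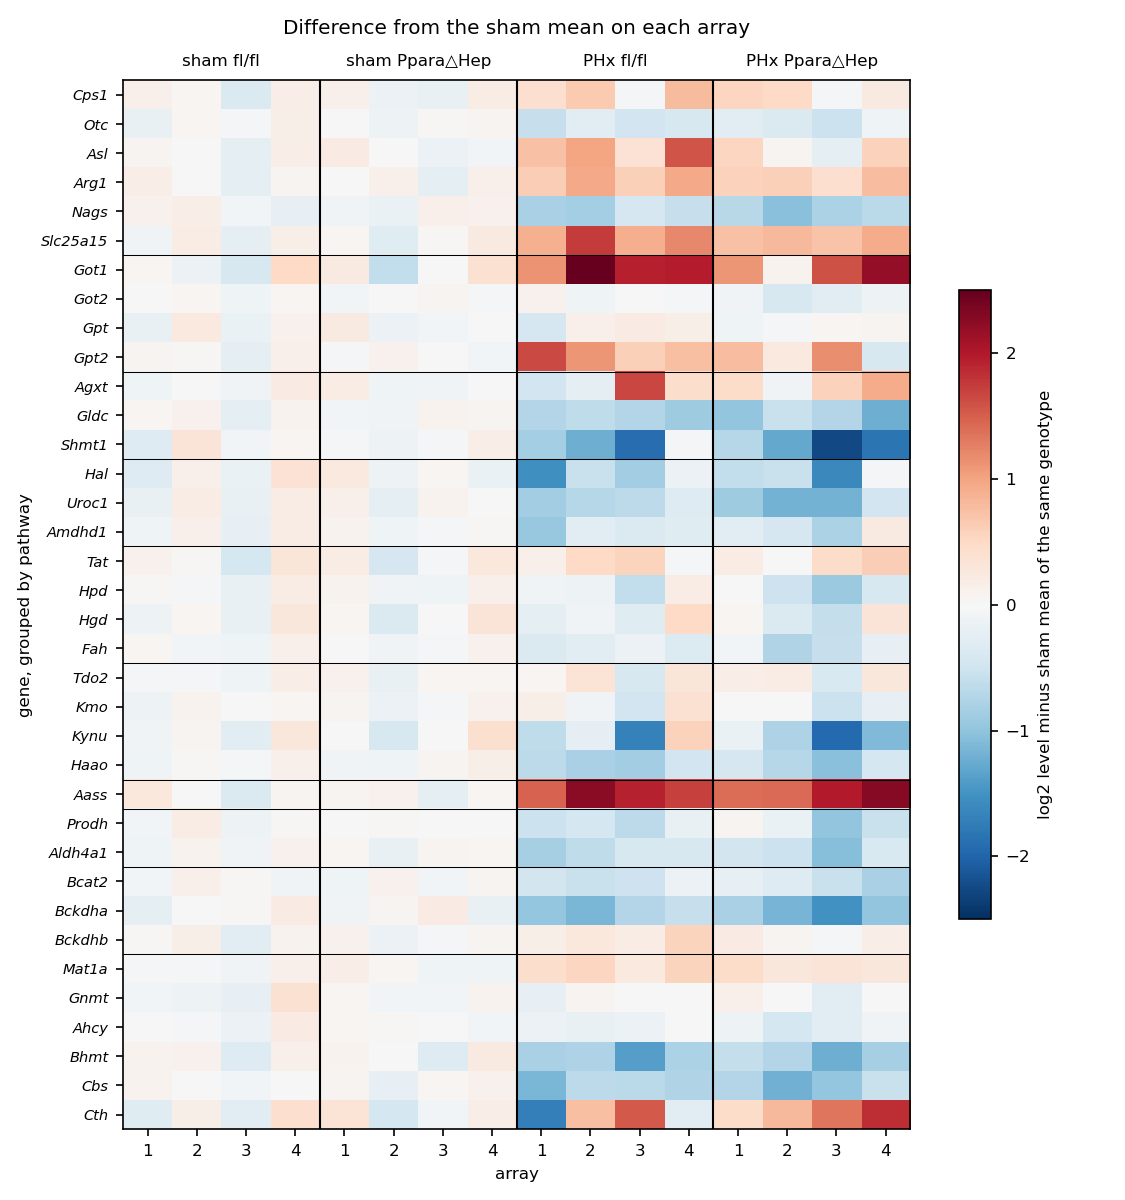
Level of each measured gene on each array minus the sham mean of the same genotype (log2), with colours at their limit beyond the ends of the scale. Aass, Slc25a15 and Arg1 are red and Nags, Gldc, Haao, Cbs and Bckdha blue on the PHx arrays, and Cth, Agxt, Kynu and Shmt1 differ between PHx arrays of a group.

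The spread between arrays was larger after PHx, in these genes as in others. The median SD of the 36 genes was 0.17 and 0.13 in the sham fl/fl and Ppara△Hep groups and 0.28 and 0.30 in the PHx groups, and that of the 9294 genes with a mean of at least 4 was 0.10 and 0.10 and then 0.15 and 0.18. The SD was larger after PHx for 29 of 36 genes in fl/fl and 30 in Ppara△Hep livers, where the same held for 71.7% and 80.1% of genes with a mean of at least 4. Within a group the genes tended to be low on the same array: array 3 held the lowest level of 21 of the 36 genes in PHx Ppara△Hep and of 24 in sham fl/fl, and array 2 of 21 in sham Ppara△Hep. In PHx fl/fl the lowest levels fell on array 1 for 15 genes and on array 3 for 14. Among genes with a mean of at least 4, these arrays held the lowest level of 18.3%, 26.2%, 25.0%, 21.7% and 31.9%, in the same order.

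Between genotypes no call was made. After sham, Ppara△Hep minus fl/fl differences ran from -0.24 to 0.24, and 0 of 36 genes passed in limma (0 also at an unadjusted p under 0.05), where 0.0133% of all genes did (9.26% at the unadjusted p). After PHx they ran from -0.70 (Asl) to 1.03 (Cth), and 0 of 36 passed, where 0.143% of all genes passed. At an unadjusted p under 0.05 there were 5 (13.9%), against 7.47% of all genes. The 5 were Got2 (-0.34 ± 0.07, adjusted p = 0.0723), Asl (-0.70 ± 0.22, 0.396), Arg1 (-0.31 ± 0.11, 0.528), Kmo (-0.40 ± 0.15, 0.557) and Bckdhb (-0.23 ± 0.10, 0.638), all lower in Ppara△Hep livers. With protein-coding genes alone in the adjustment, Got2 passed (adjusted p = 0.0472). That was the only 1 of 25 settings in which it did, and its adjusted p reached 0.693.

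The difference between the genotypes' PHx changes passed for 0 of 36 genes (limma; 2 at an unadjusted p under 0.05, Asl and Got2) and for 0% of all genes, of which 11.3% had an unadjusted p under 0.05. It was below 0 for 27 of the 36 genes, with a median of -0.11, against a median of 0.03 over all genes and -0.03 over those with a mean of at least 4. It was above 0 for 9 of the 36 genes and for 58.4% of all genes. That share was not counted for genes with a mean of at least 4, whose median was below 0 as that of the 36 genes was. Genes that move together on an array do not give independent signs, and the count of signs was not tested. Its standard errors of 0.09 for Got2, 0.31 for Asl, 0.38 for Gpt2, 0.57 for Got1 and 0.72 for Cth set how large a difference could have been seen. A p that misses the threshold does not show that the genotypes responded alike.

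**Figure D4:**
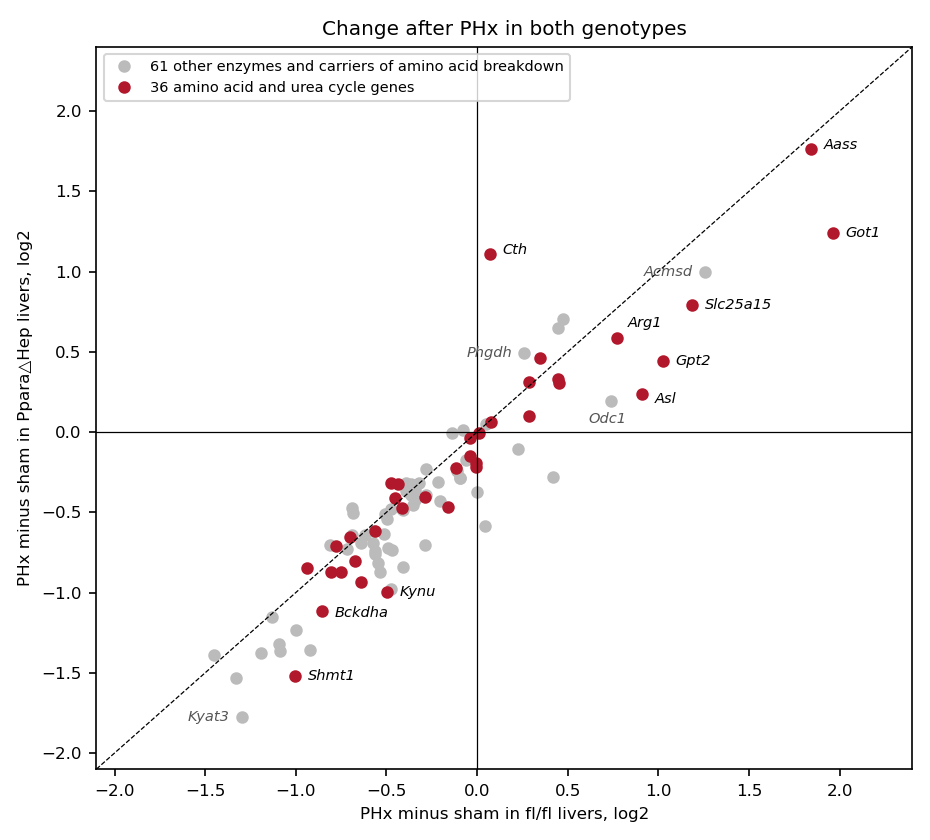
Change after PHx (log2) in fl/fl livers, horizontal, and Ppara△Hep livers, vertical, for the 36 genes (red) and 61 other enzymes and carriers (grey). The grey genes are mostly of amino acid breakdown, with some of synthesis. The dashed line marks equal changes. Most grey points lie below 0 on both axes, and Cth, Got1, Gpt2 and Asl lie farthest from the line among the red ones.

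Other enzymes and carriers, mostly of amino acid breakdown, a list of 69 genes of which 61 were measured, showed more falls than rises. The list also holds genes of synthesis, among them Phgdh, Psat1, Psph, Asns and Odc1. In fl/fl livers 41 (67.2%) fell, 3 rose and 17 did not pass, with a median of -0.41, and in Ppara△Hep livers 47 (77%) fell, 1 rose and 13 did not pass, with a median of -0.49. Of all genes 20.8% and 17.5% fell, and of those with a mean of at least 4, 36.1% and 39.8%, with medians of -0.16 and -0.19. Shmt2, the mitochondrial partner of Shmt1, fell by 1.00 ± 0.09 (adjusted p = 1.46e-06) and 1.24 ± 0.09 (1.05e-07). Mpst of cysteine breakdown fell by 1.09 ± 0.13 (2.17e-05) and 1.32 ± 0.13 (2.36e-06), and Gcsh of the glycine cleavage system by 0.68 ± 0.08 (1.74e-05) and 0.51 ± 0.08 (0.000274). The 3 that rose in fl/fl livers were Odc1, which makes putrescine from ornithine (0.74 ± 0.13, adjusted p = 0.000638), Phgdh of serine synthesis (0.26 ± 0.07, 0.0122) and Acmsd of tryptophan breakdown (1.26 ± 0.46, 0.0463), of which Phgdh also rose in Ppara△Hep livers (0.49 ± 0.07, 0.000121). Oat, ornithine aminotransferase, did not pass (0.42 ± 0.26 and -0.28 ± 0.26; adjusted p = 0.241 and 0.456).

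Of 19 amino acid transporters, 2 rose and 4 fell in fl/fl and 1 rose and 5 fell in Ppara△Hep livers. In fl/fl livers these are 10.5% and 21.1%, near the 11.9% and 20.8% of all genes, and in Ppara△Hep livers 5.26% and 26.3%, against 14.8% and 17.5%. Slc25a22, a mitochondrial glutamate carrier, rose by 1.12 ± 0.23 (adjusted p = 0.0023) and 0.68 ± 0.23 (0.0381). Slc7a2, which brings arginine and ornithine into the cell, rose in fl/fl livers by 1.19 ± 0.30 (0.00767), with 0.75 ± 0.30 in Ppara△Hep livers (0.0714). Slc3a1, a subunit of the cystine transporter, fell by 1.71 ± 0.27 (0.000309) and 1.50 ± 0.27 (0.000782). The others that fell were Slc1a4, Slc25a38 and Slc25a12 in both genotypes and Slc1a2 in Ppara△Hep livers.

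A further list held hormone receptors and transcription factors that act on amino acid genes. It also held genes that are neither, among them Pck1, Igfbp1, Sik1 and Fkbp5. Of its 23 measured genes, 5 rose and 6 fell in fl/fl and 3 rose and 8 fell in Ppara△Hep livers. The shares that fell, 26.1% and 34.8%, lie between those of all genes and those of genes with a mean of at least 4. The shares that rose were 21.7% and 13%, against 11.9% and 14.8% of all genes. Of genes with a mean of at least 4, 6.89% and 6.24% rose. Gcgr, the glucagon receptor, fell by 0.98 ± 0.16 (adjusted p = 0.000435) and 1.16 ± 0.16 (8.88e-05). Nr3c1, the glucocorticoid receptor, fell by 0.65 ± 0.11 (0.000571) and 0.73 ± 0.11 (0.000206), and Klf15, a regulator of amino acid breakdown in fasting, by 0.58 ± 0.13 (0.00369) and 0.74 ± 0.13 (0.000589). Cebpb did not pass (-0.09 ± 0.14 and 0.20 ± 0.14). The 5 that rose in fl/fl livers were Ppargc1a (1.83 ± 0.44, adjusted p = 0.00574), Sik1 (1.81 ± 0.46, 0.00826), Per1 (1.01 ± 0.19, 0.00131), Fkbp5 (0.76 ± 0.24, 0.0245) and Creb3l3 (0.39 ± 0.07, 0.000584), of which Sik1, Per1 and Fkbp5 also rose in Ppara△Hep livers.

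Creb3l3, a membrane-bound factor of the fasted liver, was the gene of these lists that differed between genotypes. It was lower in Ppara△Hep than in fl/fl livers after PHx by 0.73 ± 0.07 on the log2 scale (6.57 ± 0.11 against 7.30 ± 0.09, adjusted p = 0.000651). The difference between its PHx changes did not pass (-0.49 ± 0.10, adjusted p = 0.286).

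Genes with a known position in the lobule, outside the 40, were set beside these. Of 10 periportal genes 0 rose and 4 fell in fl/fl and 5 fell in Ppara△Hep livers (limma), among them Cyp2f2 (-0.34 ± 0.10, adjusted p = 0.0175, and -0.47 ± 0.10, 0.00226). Pigr, Ctsc and Aldh1b1 fell with it in both genotypes and Sult5a1 in Ppara△Hep livers. Of 10 pericentral genes 0 rose and 7 and 8 fell, among them Lgr5 (-1.32 ± 0.28, adjusted p = 0.00241, and -1.47 ± 0.28, 0.00103). The shares that fell were 40% and 50% of the periportal and 70% and 80% of the pericentral genes, against 36.1% and 39.8% of genes with a mean of at least 4, and the difference between these lists was not tested. Of the 12 hepatocyte markers outside the 40 genes, 4 (33.3%) fell in fl/fl and 3 (25%) in Ppara△Hep livers, with medians of -0.14 and -0.11, near or below the share of genes with a mean of at least 4. These were Apob, Serpinc1 and F2 in both and Serpina1c in fl/fl livers. Their part in the changes above was not tested. Of 11 Kupffer cell and macrophage markers 4 (Adgre1, Csf1r, C1qa and Cd5l) and 8 fell, which is 36.4% and 72.7%. Cd68 (0.66 and 0.64) and Marco (0.22 and 0.30) had changes above 0 that did not pass. The summary level of this list was 5.06 to 5.71 on sham and 4.80 to 5.25 on PHx arrays. Of 10 sinusoidal endothelial markers 6 and 6 fell (60% and 60%) and 1 rose in each (Lyve1), with levels of 5.25 to 5.43 and 4.79 to 5.14. Of genes with a mean of at least 4, 36.1% and 39.8% fell. The lists for neutrophils and monocytes, lymphocytes and cholangiocytes lay at or below 3.16 on every array.

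The scaling of the arrays bears on how many genes count as lower. As deposited, 36.5% of the genes called in fl/fl and 45.8% of those called in Ppara△Hep livers were higher after PHx, and with array medians subtracted these shares were 14.8% and 13.9%. That scaling lowered the PHx changes of all genes in a genotype by the same amount, so that falls grew and rises shrank. A fall that passed only under it is therefore no separate support. The median of all genes moved from -0.04 to -0.15 in fl/fl and from 0.01 to -0.14 in Ppara△Hep livers. No called change of the 36 genes turned its sign under that scaling.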

How the data were processed

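Total RNA of 16 mouse livers, 4 per group, was hybridised to Affymetrix arrays. The deposited table gives a log2 value per probe set and array, made by the authors with RMA per the submitters' processing notes, which corrects background, normalizes between arrays and summarises probes. For the software, version and build, the sources used here name nothing. Of 72688 probe sets, 32750 are listed in the platform annotation used here and 30604 of these have 1 symbol, which gave 30142 genes. Probe sets of several symbols were left unnamed.

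The test was limma 3.58.1 (R 4.3.3, data.table version 1.17.8), with 1 mean per group over all 16 arrays, 12 residual degrees of freedom, eBayes defaults, two-sided. P-values were adjusted by Benjamini and Hochberg over all 30142 genes. Of 5 comparisons, 2 set PHx against sham within a genotype, 2 set the genotypes against each other within an operation, and 1 was the interaction. The code was tested on simulated data. Levels on arrays have no depth, and the number of arrays limits the precision.

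Per-array values are given for genes whose PHx change passed with a log2 size of at least 1 in either genotype and for Cps1, Otc, Asl, Arg1, Tat, Mat1a and Agxt whatever their change. Of the other lists at most 4 genes with the smallest adjusted p were named, with Oat, Nr3c1, Gcgr, Klf15 and Cebpb, and all where 5 or fewer were counted. The genes and lists were chosen with earlier results of these data known. Alternatives were cyclic loess, array medians subtracted, a mean level of at least 4, the mean over probe sets, protein-coding genes alone, limma's trend and robust options, array weights, the compared groups alone, and each array left out; leaving out both PHx arrays numbered 3 was added after the data were seen.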

Additional observations from a re-analysis of the deposited data

Results flagged for a closer look

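Within the 144 groups of 4 arrays (36 genes by 4 groups), 5 had an array far from the other 3 by Dixon's criterion, which chance alone meets in about 1 of 20 groups. In PHx fl/fl livers array 1 read 5.23 for Gpt, where the others lay at 5.77 to 5.85, and 6.81 for Amdhd1, where they lay at 7.40 to 7.47. Array 3 of that group read 9.46 for Bhmt against 10.03 to 10.08. In sham fl/fl livers array 3 read 10.53 for Bhmt against 10.94 to 10.96, and in sham Ppara△Hep livers array 2 read 6.01 for Aldh4a1 against 6.25 to 6.27.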

How the results depend on the processing

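Over 25 alternative settings, 16 of the 19 calls in fl/fl and 13 of the 19 in Ppara△Hep livers were kept in all, and no called change turned its sign. The fl/fl calls lost in some setting were those of Shmt1, Bcat2 and Bckdhb, and in Ppara△Hep livers those of Otc, Got1, Got2, Fah, Mat1a and Ahcy. Counts of genes that rose ranged from 7 to 9 and from 4 to 6, and of genes that fell from 9 to 16 and from 10 to 19. The count lower in Ppara△Hep than fl/fl after PHx was 1 with protein-coding genes alone (Got2), where fewer genes enter the adjustment, and 0 otherwise. No paired analysis was possible because the labels give the groups no shared replicate numbers. Signs turned for changes that had not passed; the cause was not tested. After cyclic loess the fl/fl changes were 0.066 for Got2, 0.033 for Hgd, 0.090 for Kmo and 0.023 for Gnmt, and the Ppara△Hep changes 0.16 for Gpt and 0.0069 for Gnmt. With array medians subtracted they were -0.094 for Gpt, -0.032 for Tdo2 and -0.035 for Cth in fl/fl and -0.088 for Tdo2 and -0.050 for Bckdhb in Ppara△Hep livers. With array weights the fl/fl changes were -0.034 for Gpt, 0.060 for Kmo and -0.21 for Cth. Without both PHx arrays numbered 3 they were -0.050 for Gpt, -0.093 for Agxt, 0.051 for Hgd, 0.15 for Kmo and -0.41 for Cth in fl/fl, and 0.0028 for Hgd and 0.041 for Gnmt in Ppara△Hep livers. Leaving out 1 array at a time, fl/fl changes ranged from -0.046 to 0.023 for Got2, -0.050 to 0.16 for Gpt, -0.093 to 0.63 for Agxt, -0.21 to 0.053 for Hgd, -0.014 to 0.23 for Tdo2, -0.13 to 0.15 for Kmo, -0.11 to 0.092 for Gnmt and -0.41 to 0.67 for Cth. Ppara△Hep changes ranged from -0.059 to 0.068 for Gpt, -0.30 to 0.0028 for Hgd, -0.013 to 0.21 for Tdo2 and -0.094 to 0.041 for Gnmt. Antigenomic background probe sets had medians of 1.19 to 1.29 on sham and 0.97 to 1.09 on PHx arrays. ERCC control probe sets had medians of 1.65 to 1.82 on sham and 1.47 to 1.58 on PHx arrays. Neither range overlapped between the operations, and the part of this difference in the PHx results was not tested. The lowest level of the 36 genes was 3.79 (Bcat2).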
